A study of Homo sapiens with 6 samples.

Results

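The *HOX* genes of clusters A to D were taken as every row of the expression data whose symbol is *HOX*, a cluster letter and a number. They came to 35 of the 20824 genes in the table, 11 of cluster A, 9 of cluster B, 9 of cluster C and 6 of cluster D. The GRCh37 annotation lists 39 such genes, and the other 4 were not analysed here. RNA-Seq had been run on 21NT cells, an established human breast line that models ductal carcinoma in situ (DCIS), after stable transfection with pcDNA3.1 carrying no insert (EV), TBX3iso1 or TBX3iso2. TBX3iso1 and TBX3iso2 are splice isoforms of the T-box transcription factor TBX3. Each line had 2 libraries, 6 in all. All 3 lines came from the same parental cells and grew in the same αMEM medium with insulin, EGF, hydrocortisone, serum and the selection agent G418. In each line the resistant clones had been pooled, so a line is 1 transfected pool. No source states that the libraries of a line came from separate cultures, so the p-values measure the spread between these libraries, which may be technical only.

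*HOX* genes encode homeodomain transcription factors that give segments of the body axis their identity. Within a cluster they lie in the order in which they act along that axis, from anterior genes (paralogue groups 1 to 3 here) through central genes (4 to 8) to posterior genes (9 to 13). Neighbouring genes often share enhancers and are silenced together by Polycomb complexes, and retinoic acid is a known activator of the anterior genes. Adult epithelia keep a part of the embryonic pattern, and *HOX* expression is often altered in breast cancer.

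The finding with the widest gap between the lines was at the posterior end of cluster A, where *HOXA11* and *HOXA13* are neighbours. Their upstream sequences are printed here because *HOXA11* went from at most 1 read in an EV library to at least 186 reads in every isoform library. Each run gives the 250 bases before the RefSeq transcription start on the minus strand of GRCh38.p14, at chr7:27185233-27185482 for *HOXA11* and chr7:27200092-27200341 for *HOXA13*. Capitals mark CpG pairs, the positions at which DNA can be methylated.

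HOXA11: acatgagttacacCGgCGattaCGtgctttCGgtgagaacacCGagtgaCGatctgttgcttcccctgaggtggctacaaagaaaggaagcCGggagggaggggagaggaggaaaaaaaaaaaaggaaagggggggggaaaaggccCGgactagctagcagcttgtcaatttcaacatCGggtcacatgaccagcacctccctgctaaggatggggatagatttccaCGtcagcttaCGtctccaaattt

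HOXA13: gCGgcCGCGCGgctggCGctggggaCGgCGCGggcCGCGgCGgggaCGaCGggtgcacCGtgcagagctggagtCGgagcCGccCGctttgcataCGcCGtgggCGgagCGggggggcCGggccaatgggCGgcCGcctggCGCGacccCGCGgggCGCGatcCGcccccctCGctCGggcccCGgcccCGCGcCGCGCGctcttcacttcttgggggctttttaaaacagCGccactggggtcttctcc

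The *HOXA11* run held 11 CpG pairs at 51.6% GC and the *HOXA13* run held 40 at 78% GC. RefSeq windows were at hand for 18 of the 35 *HOX* genes, 25 windows in all, and their median was 19 CpG pairs against 11 over 35116 promoters. The 25 are not all independent, since *HOXC4* and *HOXC5* have the same window and *HOXA3* has several. The T-box core letters GGTGTGA, searched on both strands, were found in 0 of the 25 *HOX* windows and in 2.76% of all promoters. That count says only that these letters are not in these windows.

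Levels are given in RPKM, a read count divided by the length of the transcript and by the depth of the library, so that they can be compared between genes. The libraries held between 43176600 and 54512400 alignments. RPKM values of a gene are whole multiples of the value of 1 read, and the reads could be recovered, as the smallest whole numbers in proportion, for 30 of the 35 *HOX* genes. *TBX3* itself stood at 8.52 and 8.24 RPKM in the EV libraries, 13.1 and 11.4 RPKM with TBX3iso1 and 17.5 and 15.5 RPKM with TBX3iso2. Both EV libraries lay below every isoform library. The rise over EV was 0.54 in log2 units for TBX3iso1, short of the 1.5-fold threshold used below, and 0.97 for TBX3iso2, which passed it. These values cover the whole gene, so they cannot check which isoform a line carries. Of 10 epithelial markers 9 were expressed, and *KRT14*, a basal keratin, was at or near 0. Of 8 fibroblast markers 7 had a mean under 0.5 RPKM, and the exception was *COL1A1*. The summed fibroblast markers, mostly *COL1A1*, ran from 4.73 to 5.01 RPKM in EV, from 8.19 to 8.84 RPKM with TBX3iso1 and from 7.20 to 7.62 RPKM with TBX3iso2. The summed blood markers, almost all *CD14*, ran from 9.51 to 10.8 RPKM in EV and from 2.26 to 2.62 RPKM with either isoform. The summed endothelial markers, mostly *PECAM1*, ran from 7.37 to 7.73 RPKM in EV and from 1.26 to 1.46 RPKM with either isoform. The other 3 markers of the blood and of the endothelial list had a mean under 0.5 RPKM. The summed epithelial markers ran from 2909 to 3003 RPKM in EV, from 2205 to 2399 RPKM under TBX3iso1 and from 2451 to 2698 RPKM under TBX3iso2. By the test described below, TBX3iso1 had 1 of the 9 expressed markers up and 2 down, against 7.46% and 14.1% of all genes tested. For TBX3iso2 it was 1 up and 3 down, against 8.94% and 12.3%. These marker levels moved with the lines as the *HOX* values below did, and their part in them was not tested.

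The 21NT lines had an uneven *HOX* pattern, with a few high genes in clusters A, B and C and values near 0 for the 6 cluster D genes analysed. A mean of 5 RPKM was reached by 1 of 3 anterior and 1 of 5 central cluster B genes. It was reached by 1 of 4 posterior cluster A genes and 3 of 5 posterior cluster C genes. In GRCh37 the *HOX* genes analysed of cluster A lie on the minus strand of chromosome 7, and those of cluster B span chr17:46605888-46710934 on the minus strand, those of cluster C chr12:54332615-54449814 on the plus strand and those of cluster D chr2:176957449-177055635 on the plus strand. Summed over the genes analysed, cluster B had 42.5 and 40.7 RPKM in the EV libraries and cluster C 33.0 and 30.9 RPKM. Cluster A had 14.8 and 14.97 RPKM there, and the 6 genes of cluster D had 0.0359 and 0.0125 RPKM. The 8 genes with the highest mean carried between 82.7% and 86.5% of the summed *HOX* RPKM of a library. The mean over the 6 libraries reached 1 RPKM for 12 genes and 5 RPKM for 6 of them.

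**Figure D1:**
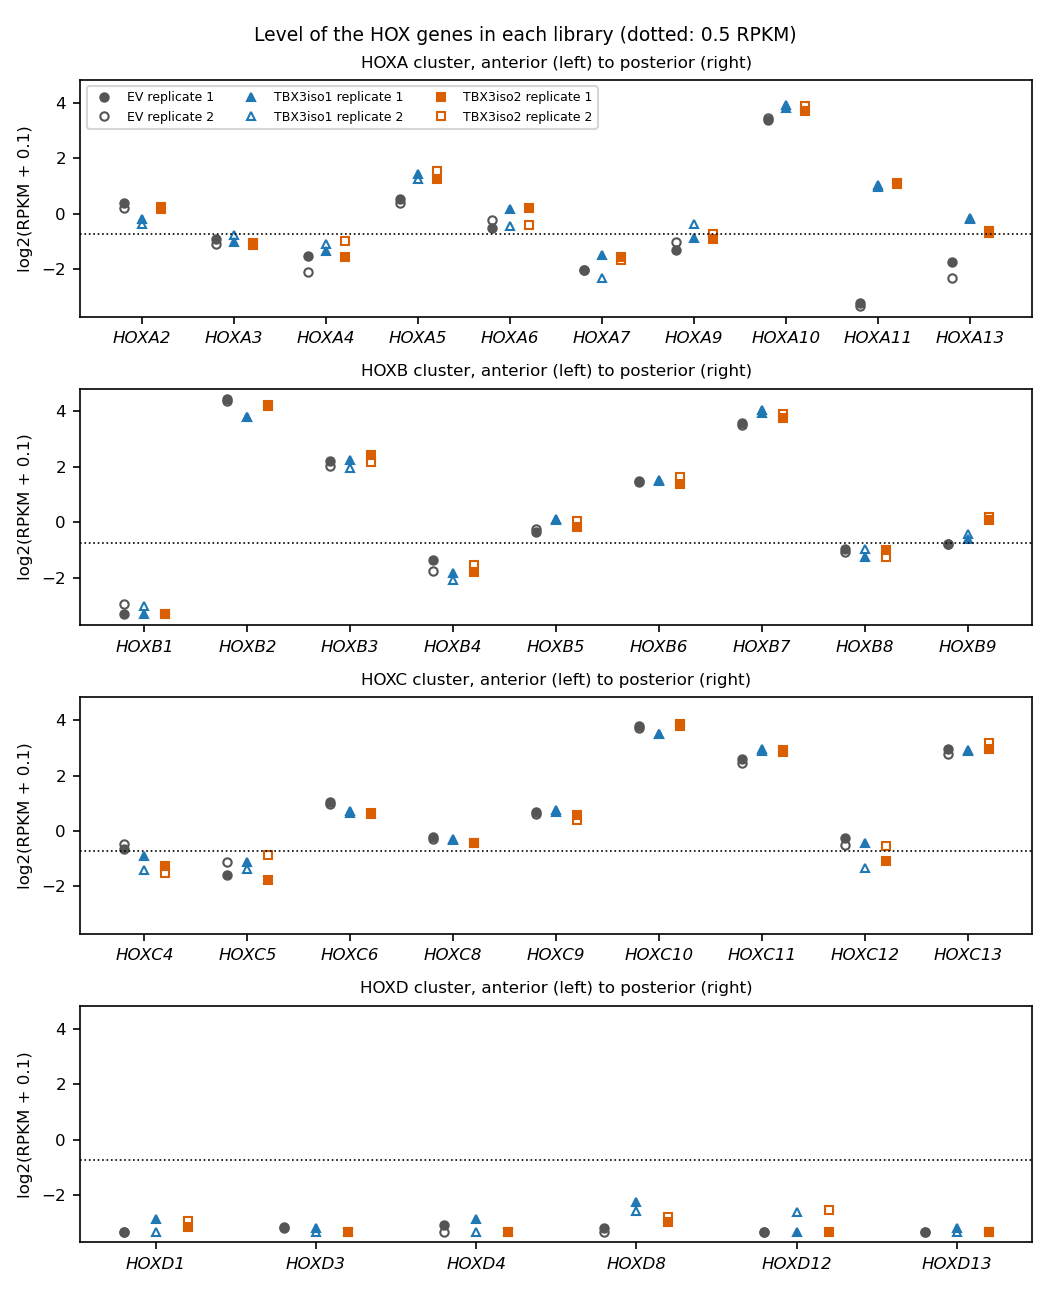
Level of *HOX* genes in each of the 6 libraries as log2(RPKM + 0.1), 1 panel per cluster, with genes in their order along the cluster from the anterior end, colours for the 3 lines, filled symbols for replicate 1, open symbols for replicate 2 and a dotted line at 0.5 RPKM. *HOXB2*, *HOXB7*, *HOXA10* and *HOXC10* sit at the top, and all 6 cluster D genes analysed lie under the dotted line. *HOXA11* is the gene whose EV libraries are far below its isoform libraries.

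The highest means of the set were those of the cluster B genes *HOXB2*, which is anterior, and *HOXB7*, which is central. *HOXB2*, a gene of hindbrain patterning, had 21.6 and 20.9 RPKM in EV, 13.8 and 14.0 under TBX3iso1, and 18.2 and 18.7 under TBX3iso2, so the 3 lines did not overlap. *HOXB7*, a central gene studied in breast cancer, had 11.8 and 11.3 RPKM in EV, 15.2 and 16.6 under TBX3iso1, and 13.6 and 14.9 under TBX3iso2, higher in every isoform library than in EV. *HOXB3* had 4.57 and 4.03 RPKM in EV, 4.62 and 3.84 under TBX3iso1, and 5.30 and 4.41 under TBX3iso2, and the lines overlapped. *HOXB6* had 2.71 and 2.62 RPKM in EV, 2.69 and 2.81 under TBX3iso1, and 2.53 and 3.03 under TBX3iso2, with overlap of all lines.

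The other genes with a mean above 5 RPKM were posterior, *HOXA10* of cluster A and *HOXC10*, *HOXC13* and *HOXC11* of cluster C. *HOXA10*, a gene of the uterus and the axial skeleton, had 10.3 and 10.8 RPKM in EV, 14.0 and 14.96 under TBX3iso1, and 13.1 and 14.7 under TBX3iso2, with every isoform library above EV. *HOXC10*, a lumbar and hindlimb gene, had 13.7 and 13.1 RPKM in EV, 11.1 and 11.2 under TBX3iso1, and 13.9 and 14.3 under TBX3iso2, lowest with TBX3iso1. *HOXC13*, a gene of hair and nail, had 7.59 and 6.83 RPKM in EV, 7.35 and 7.51 under TBX3iso1, and 7.58 and 8.87 under TBX3iso2, and EV overlapped each isoform line. *HOXC11* had 6.02 and 5.36 RPKM in EV, 7.35 and 7.61 under TBX3iso1, and 7.13 and 7.57 under TBX3iso2, with both EV libraries below the rest. Between neighbours in the order of means, *HOXB7* (13.9 RPKM), *HOXA10* (12.97 RPKM) and *HOXC10* (12.9 RPKM) lay within the spread of their libraries. Part of the *HOXA10* span, 4576 bases, overlaps *HOXA9* on the same strand, and *HOXC6* overlaps *HOXC4* over 13893 bases. *HOXB9* lies within the annotated span of *HOXB7*, and *HOXA5* within that of *HOXA3*, each on the same strand. *HOXB2* overlaps *HOXB-AS1* on the other strand. These are examples, and how reads were divided between overlapping genes is uncertain. The 5 genes without whole reads were *HOXA9*, *HOXA10*, *HOXC4*, *HOXC5* and *HOXC6*.

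Silence was found mostly in cluster D. A gene was called silent when it was under 0.1 RPKM in all 6 libraries, which held for 6 genes, *HOXB1* and the cluster D genes *HOXD1*, *HOXD3*, *HOXD4*, *HOXD12* and *HOXD13*. As the smallest whole numbers in proportion, each of these had between 0 and 3 reads in a library and between 1 and 6 over all 6. These are lower limits. A gene above 0 in few libraries, such as *HOXD12* or *HOXD13*, can also fit higher multiples. Just outside this limit lay *HOXD8*, which reached 0.112 RPKM in 1 TBX3iso1 library. A further 11 genes were low, with a mean under 0.5 RPKM, and the remaining 18 reached that mean and entered the test, 5 of cluster A, 6 of cluster B, 7 of cluster C and 0 of cluster D. At that limit *HOXC12* was just inside with a mean of 0.540 RPKM and *HOXA13* just outside with 0.491 RPKM. *HOXA11*, *HOXB9* and *HOXC12* were under 0.5 RPKM in at least 1 line and passed through the others.

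Lines were compared with limma on log2(RPKM + 0.1) over all 12805 genes whose mean reached 0.5 RPKM, and a gene was called when its Benjamini-Hochberg adjusted p was under 0.05 and it changed over 1.5-fold. Every fold change below is on that log2 scale, which understates the change of low genes. Genes in bulk RNA can change through fewer cells expressing them or through less RNA per cell, and these cannot be told apart here.

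With TBX3iso1, 2 *HOX* genes were higher than in EV, *HOXA11* and *HOXA5*, and 2 were lower, *HOXA2* and *HOXB2*. These were 2 and 2 of 18 tested, where 7.46% of all genes tested were called higher and 14.1% lower. The median log2 fold change of the 18 was 0.07, and that of all genes tested was -0.05. With TBX3iso2, 3 *HOX* genes were higher, *HOXA11*, *HOXA5* and *HOXB9*, and 0 were lower, where 8.94% of all genes tested were called higher and 12.3% lower. Of the 18 *HOX* genes 8 had an adjusted p under 0.05 by limma in this comparison whatever their fold, and 8 an unadjusted p under 0.05. With TBX3iso1 these counts were 8 and 10. The shares of all genes tested under these p limits were not computed, so the counts cannot be read as an excess. The median of the 18 with TBX3iso2 was 0.18, and that of all genes tested was -0.00206. Both comparisons use the same EV libraries.

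Without the filter on low values all 35 *HOX* genes could be tested. The calls against EV were then 6 with TBX3iso1 and 4 with TBX3iso2, where 16.4% and 16.3% of all 20824 genes were called in either direction. The added genes were *HOXA13* in both comparisons and *HOXD8* with TBX3iso1. The median over the 35 was 0.10 for TBX3iso1 and 0.08 for TBX3iso2, beside -0.05 and -0.02 over all genes.

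**Figure D2:**
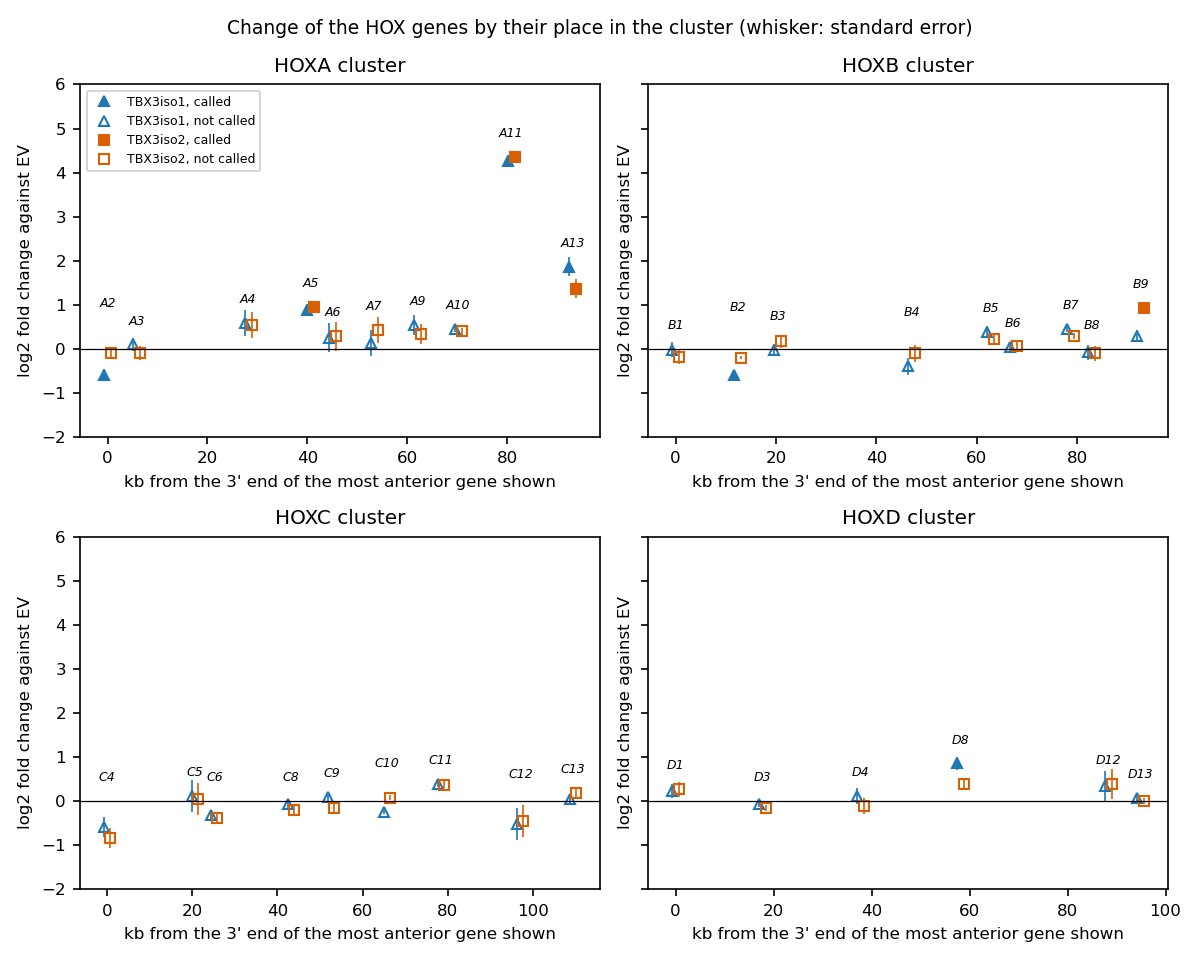
Log2 fold change against EV of *HOX* genes from the fit without a filter, 1 panel per cluster, by place along the cluster from the anterior end, with TBX3iso1 and TBX3iso2 as separate colours, whiskers for the standard error and filled symbols for called genes. Cluster A reaches 4.27 and 4.35 at *HOXA11* near its posterior end, with *HOXA13* next to it at 1.86 and 1.36, while cluster C genes stay between -0.84 and 0.39.

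The largest change of a *HOX* gene was that of *HOXA11*, which acts in the forearm skeleton, the kidney and the uterus (GRCh37 chr7:27220776-27224851, minus strand). It was at 0.00852 and 0 RPKM in EV, 1.87 and 1.94 under TBX3iso1, and 2.02 and 2.04 under TBX3iso2. Every isoform library was far above both EV libraries, and the isoform lines were close to each other. In reads, EV had 1 and 0, TBX3iso1 203 and 204, and TBX3iso2 220 and 186. Ratios of reads to EV were scaled to the library depth implied by the value of 1 read. The ratio was 400.1 with TBX3iso1, with an exact 95% interval from 71.4 to 15841, and 425 with TBX3iso2, from 75.9 to 16832. These intervals cover counting error only. The fitted log2 fold change was 4.27 ± 0.15 (SE, n = 2 against 2) with TBX3iso1 at an adjusted p of 3.85e-06 by limma and 4.35 ± 0.15 with TBX3iso2 at 4.39e-06. In that fit *HOXA11* passed the filter on low values only through the isoform lines. Without the filter its adjusted p by limma was 0.00066 with TBX3iso1 and 0.000787 with TBX3iso2. The fitted size depends on the added constant, from 1.53 at 1 RPKM to 7.14 at 0.01 RPKM for TBX3iso1. Between the isoforms the difference was 0.08, with a 95% interval from -0.27 to 0.44.

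*HOXA11-AS*, the antisense RNA that starts from the other strand at the *HOXA11* start, moved with it. It was listed at 0 in both EV libraries, with 42 and 30 reads with TBX3iso1 (0.664 and 0.488 RPKM) and 29 and 25 reads with TBX3iso2 (0.455 and 0.468 RPKM). Against a floor of 3 reads over the EV group this is at least 23.6-fold higher with TBX3iso1 and at least 18.8-fold higher with TBX3iso2. The 2 genes overlap by 726 bases on opposite strands. The libraries were stranded, but whether strand was used in counting is not given in the sources used here, so reads in the overlap cannot be assigned with certainty.

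*HOXA13*, the last gene of the cluster, which patterns the hand, the foot and the genital tract (chr7:27233122-27239710), was low in EV at 0.198 and 0.103 RPKM. It reached 0.780 and 0.802 RPKM with TBX3iso1 and 0.542 and 0.520 RPKM with TBX3iso2, so every isoform library exceeded both EV libraries. In reads this was 22 and 9 in EV, 80 and 80 with TBX3iso1 and 56 and 45 with TBX3iso2, a ratio to EV of 5.07 (exact 95% interval 3.44 to 7.71) and 3.41 (2.26 to 5.28). In the fit without a filter the log2 fold change was 1.86 ± 0.22 (SE) for TBX3iso1, adjusted p = 0.00612, and 1.36 ± 0.22 for TBX3iso2, adjusted p = 0.0130. Without TBX3iso1 replicate 1 or 2 the adjusted p was 0.0516 or 0.0596, and without TBX3iso2 replicate 1 or 2 it was 0.0688 or 0.0725.

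The rise did not run evenly through the neighbours of these genes. *HOXA10*, whose 5' end lies 4.97 kb from that of *HOXA11*, was 0.46 higher with TBX3iso1 (adjusted p = 0.00449 by limma) and 0.40 higher with TBX3iso2 (adjusted p = 0.00788), both under the 1.5-fold threshold. *HOTTIP*, a noncoding RNA that overlaps *HOXA13* by 1517 bases on the other strand, stayed between 0.0594 and 0.0996 RPKM in all 6 libraries. *EVX1*, a homeobox gene 42.6 kb beyond *HOXA13*, was at or below 0.0184 RPKM in every library.

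In the middle of the cluster *HOXA5*, a gene of lung and mammary development (chr7:27180671-27183300), had 1.34 and 1.21 RPKM in EV, 2.57 and 2.30 under TBX3iso1, and 2.30 and 2.84 under TBX3iso2. The isoform libraries all lay above EV and overlapped each other. The log2 fold change was 0.88 ± 0.14 (SE), adjusted p = 0.00205 by limma, with TBX3iso1 and 0.95 ± 0.14, adjusted p = 0.00141, with TBX3iso2. The difference between the isoforms was 0.07, with a 95% interval from -0.26 to 0.40. Its neighbour *HOXA6* had log2 fold changes of 0.25 and 0.28 and passed neither test. *HOXA4* and *HOXA7*, both low, had 0.59 and 0.13 with TBX3iso1 and 0.54 and 0.43 with TBX3iso2 in the fit without a filter and were not called.

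At the anterior end *HOXA2*, which sets the identity of the second branchial arch (chr7:27139973-27142305), fell with TBX3iso1. It had 1.20 and 1.06 RPKM in EV, 0.772 and 0.666 under TBX3iso1, and 1.08 and 1.01 under TBX3iso2, and the TBX3iso1 libraries were the lowest. The log2 fold change was -0.59 ± 0.15 (SE) with TBX3iso1, adjusted p = 0.0157 by limma, and -0.10 with TBX3iso2, adjusted p = 0.616. The isoforms differed by 0.49, with a 95% interval from 0.14 to 0.84 and an adjusted p of 0.0701, which missed the threshold. The adjusted p against EV was 0.113 without EV replicate 1, 0.0599 without EV replicate 2 and 0.0936 without TBX3iso1 replicate 2. The fall was 1.502-fold and came under 1.5-fold with median-ratio scaling, at -0.54.

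Summed over its 11 genes, cluster A had 14.8 and 14.97 RPKM in EV, 22.5 and 23.0 under TBX3iso1, and 21.4 and 23.3 under TBX3iso2. The ratio of the means was 1.52 and 1.502. *HOXA10* made up most of this sum in every line, from 10.5 ± 0.349 RPKM (SD, n = 2) in EV up to 14.5 ± 0.680 under TBX3iso1, and 13.9 ± 1.15 under TBX3iso2.

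In cluster B an anterior gene fell with TBX3iso1 and the most posterior gene analysed rose with TBX3iso2. *HOXB2* (chr17:46618256-46622471) fell with TBX3iso1 by 0.61 ± 0.07 (SE) on the log2 scale, adjusted p = 0.000434 by limma. This was 1.52-fold and came under 1.5-fold with median-ratio scaling, at -0.55. With TBX3iso2 the value was -0.20 ± 0.07, adjusted p = 0.0460, under the 1.5-fold threshold. The isoforms differed by 0.41, with a 95% interval from 0.25 to 0.57 and an adjusted p of 0.00904, also under 1.5-fold. *HOXB7* was 0.46 higher with TBX3iso1 (adjusted p = 0.00392) and 0.30 higher with TBX3iso2 (adjusted p = 0.0235), both under 1.5-fold.

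*HOXB9*, the most posterior cluster B gene analysed, whose loss together with its paralogues impairs the mouse mammary gland (chr17:46698518-46703720), had 0.477 and 0.478 RPKM in EV. It had 0.563 and 0.654 RPKM with TBX3iso1 and 0.955 and 1.03 RPKM with TBX3iso2. The TBX3iso2 libraries were the highest, and the 3 lines did not overlap. The log2 fold change was 0.92 ± 0.16 (SE), adjusted p = 0.00286 by limma, with TBX3iso2 and 0.29 ± 0.16, adjusted p = 0.172, with TBX3iso1. *HOXB9* passed the filter on low values through the isoform lines. Without the filter its adjusted p by limma with TBX3iso2 was 0.0104.

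In the direct comparison *HOXB9* was the 1 *HOX* gene called higher with TBX3iso2 than with TBX3iso1, and 0 were called lower. Of all genes tested 3.47% were called higher and 2.82% lower in this comparison. Of the 18 *HOX* genes 3 had an adjusted p under 0.05 by limma, *HOXB9*, *HOXB2* and *HOXC10*, and 4 an unadjusted p under 0.05. The shares of all genes under these p limits, with or without the filter, were not computed. The *HOXB9* difference was 0.63 ± 0.16 (SE), with a 95% interval from 0.26 to 1.00 and an adjusted p of 0.0383. Leaving out any 1 of TBX3iso1 replicate 1, TBX3iso1 replicate 2, TBX3iso2 replicate 1 and TBX3iso2 replicate 2 raised that adjusted p to 0.169, 0.0814, 0.0712 and 0.106. Without a filter 0 of the 35 genes were called by limma, with 2 at an adjusted and 5 at an unadjusted p under 0.05, where 3.68% of all genes were called.

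**Figure D3:**
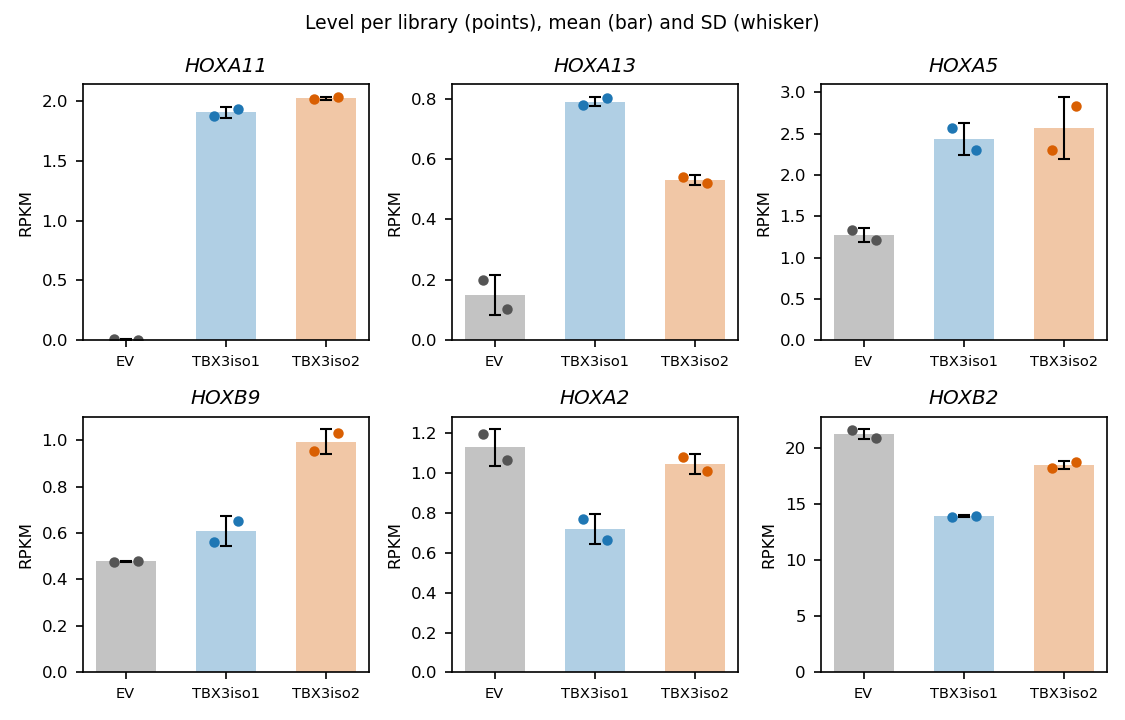
RPKM (linear axis from 0) of the 5 *HOX* genes called with the filter on low values and of *HOXA13*, called only without it, with bars for the mean of a line, whiskers for the SD (n = 2) and points for the libraries. *HOXA11* is close to 0 in EV and near 2 RPKM with either isoform, *HOXB2* and *HOXA2* are lowest with TBX3iso1, and *HOXB9* is highest with TBX3iso2.

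Cluster C had no called gene in any comparison, with 7 of its 9 genes tested by limma. Among its genes with an adjusted p under 0.05 and less than a 1.5-fold change, *HOXC11* was 0.39 higher with TBX3iso1 (adjusted p = 0.0113) and 0.37 higher with TBX3iso2 (adjusted p = 0.0147). *HOXC10* was at -0.25 with TBX3iso1 (adjusted p = 0.0242) and 0.08 with TBX3iso2, and the isoforms differed by 0.33, with a 95% interval from 0.16 to 0.50 and an adjusted p of 0.0229. *HOXC6*, a gene of the thorax that is expressed in the mammary gland, was at -0.32 with TBX3iso1 and -0.38 with TBX3iso2, the latter with an adjusted p of 0.0351. *HOXC4*, which shares part of its span, was at -0.59 and -0.84 without a filter and was not called. *HOXC12*, whose TBX3iso1 libraries had 22 and 10 reads, was called lower with TBX3iso1 when replicate 1 of that line was left out. The summed level of cluster C was 32.0 ± 1.53 RPKM (SD, n = 2) in EV, 31.0 ± 0.0673 under TBX3iso1, and 34.2 ± 1.72 under TBX3iso2.

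For the 6 cluster D genes analysed the summed level stayed at or below 0.208 RPKM in every library. *HOXD8* had 1 and 0 reads in EV, 12 and 7 with TBX3iso1 and 3 and 4 with TBX3iso2. The ratio to EV was 18.7 with TBX3iso1, with an exact 95% interval from 2.97 to 776, and 7.33 with TBX3iso2, from 0.942 to 330. Without a filter its log2 fold change with TBX3iso1 was 0.85 ± 0.14 (SE), adjusted p = 0.0152 by limma. The adjusted p was 0.0906 without EV replicate 1, 0.116 without EV replicate 2 and 0.0525 without TBX3iso1 replicate 1.

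Genes on both sides of cluster D, whose analysed *HOX* genes were near silent, were expressed and several rose. *KIAA1715*, beyond the posterior end, had 2.96 ± 0.144 RPKM (SD, n = 2) in EV, 5.38 ± 0.201 under TBX3iso1, and 5.02 ± 0.496 under TBX3iso2, with log2 fold changes of 0.84 and 0.74. *MTX2*, a mitochondrial import gene beyond the anterior end, rose from 17.8 ± 0.0295 RPKM to 29.7 ± 1.51 RPKM and 32.4 ± 3.14 RPKM, changes of 0.73 and 0.85. *LINC01116*, a noncoding RNA 449 kb from *HOXD1*, had 0.107 and 0.108 RPKM in EV, 2.99 and 3.10 under TBX3iso1, and 1.33 and 1.76 under TBX3iso2. Its log2 fold change was 3.92 and 2.97, and it was lower with TBX3iso2 than with TBX3iso1 by limma, -0.95 at an adjusted p of 0.0106. *LINC01116* was under 0.5 RPKM in EV and passed the filter only through the isoform lines. *HAGLROS*, a noncoding RNA inside the cluster, rose from 1.27 ± 0.0528 RPKM to 3.33 ± 0.271 RPKM and 2.26 ± 0.642 RPKM, changes of 1.32 and 0.76. Not every listed neighbour rose. *ATF2* had 6.68 ± 0.103 RPKM in EV, 6.60 ± 0.601 under TBX3iso1, and 7.16 ± 0.832 under TBX3iso2. *ATP5G3* and *HNRNPA3* had EV means of 31.0 and 40.2 RPKM and were higher in every isoform library.

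**Figure D4:**
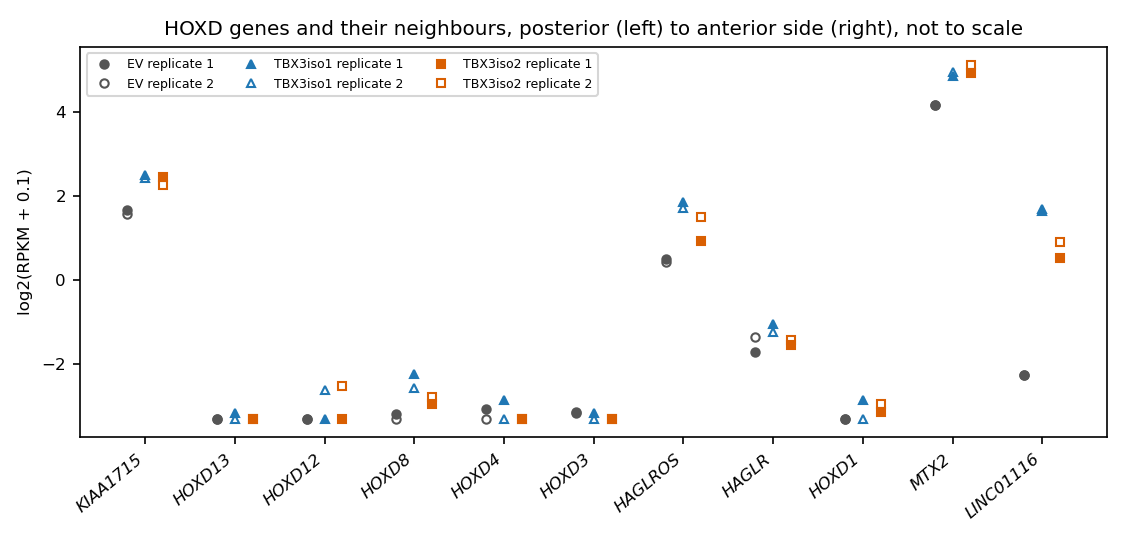
Level of the cluster D *HOX* genes and of the genes inside and around the cluster in each library as log2(RPKM + 0.1), with genes placed in order and not to scale and colours for the 3 lines. The *HOXD* genes lie at the bottom in all lines, while *KIAA1715*, *MTX2*, *HAGLROS* and *LINC01116* lie higher with either isoform than with EV.

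Over all clusters, 14 noncoding genes inside the clusters had values and 5 were tested. With each isoform 1 was higher and 2 were lower. For this list and the flanking genes, the background is again 7.46% of all genes tested rising and 14.1% falling under TBX3iso1, and 8.94% rising and 12.3% falling under TBX3iso2. *HOXB-AS1* fell by 1.03 with TBX3iso1 and fell by 0.83 with TBX3iso2 on the log2 scale. *HOTAIR*, the cluster C antisense RNA known to bind Polycomb proteins, had 2.22 and 2.15 RPKM in EV, 1.45 and 1.31 under TBX3iso1, and 1.35 and 1.69 under TBX3iso2. Its change of -0.62 with TBX3iso1 was called (adjusted p = 0.0101 by limma), and that of -0.50 with TBX3iso2 had an adjusted p of 0.0236 and was under 1.5-fold. It overlaps *HOXC11* by 1831 bases on the other strand. *HOXC-AS3* fell by 1.02 with TBX3iso2. Of 20 genes flanking the clusters 16 were tested, of which 4 rose and 2 fell with TBX3iso1, and 5 rose and 1 fell with TBX3iso2, among them *CALCOCO1* beside cluster C at -1.54 and -1.98.

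HOX proteins bind DNA together with PBX, MEIS and PKNOX proteins, and 6 of 9 genes of these cofactors were tested. *PBX3* had 1.86 and 1.63 RPKM in EV, 2.43 and 2.42 under TBX3iso1, and 3.04 and 3.02 under TBX3iso2. It rose by 0.76 with TBX3iso2, adjusted p = 0.00138 by limma, and its value of 0.45 with TBX3iso1 was under 1.5-fold. The list did not rise as a whole. With TBX3iso1 and TBX3iso2, *PBX2* was at -0.23 and -0.45 and *MEIS1* at -0.25 and -0.41, all under 1.5-fold. *MEIS2* was at -0.07 and 0.12 and *PKNOX1* at -0.02 and 0.03.

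All 27 Polycomb genes listed were tested, and 2 rose and 2 fell with TBX3iso1, while 1 rose and 3 fell with TBX3iso2. Over all genes tested 7.46% rose and 14.1% fell with TBX3iso1, and 8.94% rose and 12.3% fell with TBX3iso2. *EZH1*, a histone H3 lysine methyltransferase subunit, fell by 0.80 with TBX3iso1 and fell by 0.81 with TBX3iso2. *RNF2*, the ubiquitin ligase of the other main Polycomb complex, rose by 0.62 and by 0.60. *JARID2* fell by 0.90 and *CBX7* fell by 0.60 with TBX3iso2, while with TBX3iso1 *CBX2* rose by 0.61 and *PHC3* fell by 0.59. The median over the list was -0.08 and -0.04. Of 13 Trithorax and related genes, which oppose Polycomb silencing, 0 were higher with either isoform by limma, 3 were lower with TBX3iso1 and 1 with TBX3iso2. *KDM6B*, a demethylase that removes the Polycomb mark, fell with TBX3iso1 from 7.48 ± 0.146 RPKM (SD, n = 2) to 3.71 ± 0.648 RPKM. *KDM6A* fell by 0.67 with TBX3iso1, and *KMT2C* fell by 0.84 with TBX3iso1 and fell by 0.85 with TBX3iso2.

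Of 13 retinoic acid genes 9 were tested, of which 2 rose and 4 fell with TBX3iso1, and 0 rose and 5 fell with TBX3iso2 by limma, with medians of -0.56 and -0.74. The shares of all genes tested were again 7.46% and 14.1% with TBX3iso1, and 8.94% and 12.3% with TBX3iso2. *DHRS3*, which turns retinaldehyde back to retinol, had 69.0 and 68.2 RPKM in EV, 18.7 and 21.6 under TBX3iso1, and 21.0 and 20.8 under TBX3iso2, with log2 fold changes of -1.77 and -1.71. The receptor genes *RXRA* (-1.06 and -1.36) and *RARG* (-0.74 and -0.74) fell with both isoforms. *RXRB* had -0.56 with TBX3iso1, under 1.5-fold, and fell by 0.81 with TBX3iso2. The receptor gene *RARA* went the other way and was not called. It had 4.87 ± 0.460 RPKM (SD, n = 2) in EV, 7.07 ± 0.267 under TBX3iso1 and 7.30 ± 0.584 under TBX3iso2. *ALDH1A1*, which makes retinoic acid, fell by 2.13 with TBX3iso1 and fell by 3.18 with TBX3iso2. It was under 0.5 RPKM with either isoform and passed the filter only through EV. With TBX3iso1 *ALDH1A3*, of the same family, rose by 0.71 and *CYP26B1*, which degrades retinoic acid, by 0.81. Of 5 other homeobox genes with values 1 was tested, *GBX2*, which rose by 0.97 and by 1.34. These lists share samples with the *HOX* comparisons, and their part in the *HOX* values was not tested.

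**Figure D5:**
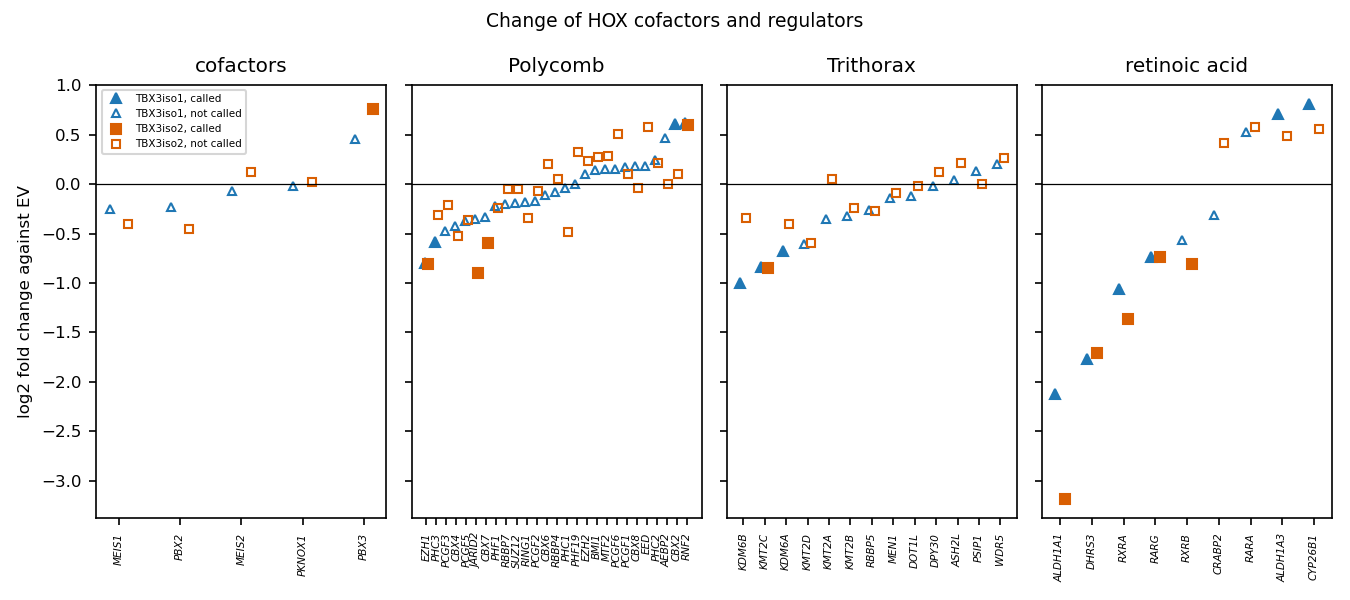
Log2 fold change against EV of tested *HOX* cofactor, Polycomb, Trithorax and retinoic acid genes, 1 panel per list, with colours for TBX3iso1 and TBX3iso2 and filled symbols for called genes. *EZH1*, *DHRS3*, *RXRA* and *RARG* are called lower with both isoforms, and *RNF2* is called higher with both.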

How the data were processed

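RNA-Seq of 6 libraries was used, 2 for each of the lines EV, TBX3iso1 and TBX3iso2. The authors prepared stranded mRNA libraries, aligned paired-end reads to hg19 with TopHat in Galaxy (at most 10 alignments) and deposited RPKM values made in Partek Genomics Suite, on the linear scale. Software versions, the gene annotation and the use of strand are not given in the sources used here. Reads with many alignments can be shared between paralogues.

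RPKM was taken to log2 after adding 0.1. Genes whose mean reached 0.5 RPKM were fitted together (R 4.3.3, limma 3.58.1), each line having its own mean and all lines sharing the moderated spread with a trend. The fit was tested on simulated data. Precision came from replicate spread: over the tested *HOX* genes, log2 differences within a line had an SD of 0.125 (EV), 0.276 (TBX3iso1) and 0.249 (TBX3iso2). The libraries held between 43176600 and 54512400 alignments. Whole reads were recovered where a gene's values lay within 0.03 of whole multiples, up to 2000 reads, for 65.2% of the 17322 genes above 0 in at least 5 libraries; a count test was not run on them.

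All *HOX* rows are counted, some genes are not reported by name here, and library values are given for called genes and the 8 highest. *HOXA13*, *HOXD8*, *HOXC4* and the neighbours *HOXA11-AS*, *HOTTIP* and *EVX1* were named after their values were seen. The same holds for *HOXA4*, *HOXA6*, *HOXA7*, *HOXC6* and *HOXC12*. It also holds for list members that were not called, such as *RARA*, *PBX2*, *MEIS1*, *MEIS2*, *PKNOX1* and *ATF2*. The *HOX* set and the gene lists were chosen with earlier results of these data known. Positions come from GENCODE annotation on GRCh37 and promoter sequences from RefSeq on GRCh38.p14, which were not mixed. Alternatives covered the pseudocount, filter, scaling, model, replicate block and each library left out.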

Additional observations from a re-analysis of the deposited data

How the results depend on the processing

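The called *HOX* genes numbered 4 for TBX3iso1 against EV, 3 for TBX3iso2 against EV and 1 between the isoforms. With a pseudocount of 1 RPKM or median-ratio scaling the first count was 2, *HOXA11* and *HOXA5*, since *HOXA2* and *HOXB2* came under 1.5-fold (*HOXB2* at -0.58 and -0.55). A filter at a mean of 2 RPKM, which removes *HOXA11*, *HOXA2* and *HOXB9*, left 2 for TBX3iso1 and 1 for TBX3iso2. The call between the isoforms was lost, with 0 genes, under a pseudocount of 1 RPKM, no filter, the filter at 2 RPKM, median-ratio scaling, quantile normalization, a linear model without moderation and a fit of only the lines compared. Leaving out 1 library at a time gave 3 to 5 genes for TBX3iso1, 3 to 4 for TBX3iso2 and 0 to 0 between the isoforms, where the adjusted p of *HOXB9* ran from 0.0712 to 0.169 by limma. With 1 library left in a line, that library is assumed to vary like the others. Of the alternative values of single genes 206 kept their direction and side of the threshold, 28 fell below it and 3, none of them a call, changed sign. These were *HOXA2* with TBX3iso2 against EV under quantile normalization (0.067) and *HOXA5* between the isoforms, which was below 0 without TBX3iso1 replicate 2 (-0.0078) and without TBX3iso2 replicate 2 and ran from -0.0739 to 0.215 as each library was left out.

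The *HOXA2* call was also lost under quantile normalization (-0.36, adjusted p = 0.0626 by limma), and the *HOXB9* call of TBX3iso2 against EV with a pseudocount of 1 RPKM (0.43). Over all genes tested, calls higher and lower with TBX3iso1 were 955 and 1802, and 1259 and 1313 after quantile normalization. With TBX3iso2 they were 1145 and 1575, and 1315 and 1338.

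Replicate numbers are shared by the lines as numbers only. Replicate differences correlated between lines at 0.22, 0.11 and 0.50 across genes, and there are 2 pairs. With a replicate block the counts were 4, 3 and 1. The alternatives for *HOXA13* and *HOXD8* were chosen after seeing the data. With a pseudocount of 1 RPKM *HOXA13* stayed called with TBX3iso1 (0.64) and not with TBX3iso2 (0.41), and *HOXD8* was not called with TBX3iso1 (0.12). Genes with few reads in EV, most of the cluster D genes analysed among them, could not show a fall or a small rise at this depth.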
